A study of Mus musculus with 18 samples.

Results

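Sca1, the surface antigen encoded by Ly6a, and 5 relatives of the Ly6 family were followed through 18 mouse lung cultures by RNA sequencing. The members were the 6 genes Ly6a, Ly6c1, Ly6d, Ly6e, Ly6i and Ly6g6c, taken by name as a gene family, and all 6 were found among the 46603 genes of each deposited table. Sca1 protein was also the marker by which the distal lung cells were sorted before culture. The comparisons below ask whether Ly6a transcript still followed the sorted fraction or the state that each culture took, and whether its relatives moved with it.

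Ly6 proteins are small, cysteine-rich proteins with the 3-finger fold of the Ly6/uPAR superfamily, mostly held on the outer membrane by a GPI anchor. Many of their genes lie side by side on mouse chromosome 15. Ly6a is used as a marker of hematopoietic stem cells and of several tissue progenitors, is expressed by many endothelial and mesenchymal cells, and can be induced by interferon. In the lung, Sca1 has been used to separate bronchioalveolar stem cells (BASCs), which lie where the terminal airway meets the alveolus, from alveolar type 2 (AT2) cells, the surfactant-producing cells of the alveolus.

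All cultures came from LSL:EGFR T790M/L858R mice, which carry a human mutant EGFR transgene behind a lox-stop-lox cassette and a CAG promoter at the Col1a1 locus, so the Ad-GFP controls carried the silent allele too. The 10 organoid cultures were 1 each of NGFR negative tracheal cells (club) with Ad-GFP or Ad-Cre, NGFR positive tracheal cells (basal) with Ad-GFP or Ad-Cre, Sca1 negative distal cells (AT2) with Ad-GFP or Ad-Cre, Sca1 positive distal cells (BASC mixed) with Ad-GFP or Ad-Cre, and BASC alveolar and BASC bronchiolar subclones with Ad-Cre. Per the paper, organoids grown from BASCs were divided by hand into alveolar, bronchiolar and mixed cultures for their morphology. The mixed cultures were thus picked too, and held organoids of both kinds. Every organoid culture grew in Matrigel with neonatal lung support cells. The 8 tumoroid cultures were grown from lung tumors. They comprised 3 AT2, 3 BASC mixed and 1 BASC bronchiolar tumoroid from Ad-Cre organoids transplanted into nude mice, which lack T cells but keep other host cells, and 1 autochthonous tumoroid from a mouse infected in vivo. Each organoid condition was thus a single culture. Among the tumoroids, the sample titles of 2 AT2 cultures share a leading number, as do those of 2 BASC mixed cultures and the BASC bronchiolar culture. The labels do not say what that number marks, nor whether the samples pooled in a group came from separate animals, so the p-values measure only the spread between these cultures. Animal age was not given in the labels.

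The organoid tables held between 27772660 and 97191624 expected counts and the tumoroid tables between 15327265 and 23355938. Organoids were sequenced on a HiSeq and tumoroids on a DNBSEQ instrument, so platform and stage cannot be told apart. All 4 tracheal organoids came from 1 HiSeq lane (lane 6) and the distal organoids from lanes 7 and 8, so lane and region cannot be told apart in that comparison. The AT2 tumoroids carry an NGFR negative sorting label although their tissue origin reads AT2, and they were placed by tissue origin. In the AT2 tumoroids the 8 listed AT2 genes summed to between 31110 and 144900 TPM (a level scaled for gene length and library size). The BASC mixed tumoroids, at 33850 to 69610 TPM, lay inside that range, so the sum does not tell these 2 origins apart. TPM is used below for levels, and log2 fold changes come from edgeR fits to the expected counts.

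Ly6a was high in the tracheal, BASC mixed and BASC bronchiolar organoids, called airway organoids below, and low in the AT2 and BASC alveolar ones, called alveolar. The name airway is for short, since the paper describes alveolar organoids in the mixed cultures too. Among the tracheal organoids it stood at 2718 TPM in club with Ad-GFP, 3002 in club with Ad-Cre, 2993 in basal with Ad-GFP and 3274 in basal with Ad-Cre. The BASC mixed organoids held 2162 TPM with Ad-GFP and 2851 with Ad-Cre, and the BASC bronchiolar organoid held 2013 TPM. The AT2 organoids held 62.0 TPM with Ad-GFP and 61.6 with Ad-Cre, and the BASC alveolar organoid 141 TPM. The 7 tracheal, BASC mixed and BASC bronchiolar organoids did not overlap with the 3 alveolar ones. As the airway class was introduced by its Ly6a level, this is a description of the levels and no test of the class. The share of all genes that separate these cultures in the same way is not given here, for Ly6a or for the members below. Between alveolar and tracheal organoids 67% of all genes tested were called, so a split of this kind is no feature of the family by itself. These are bulk cultures, in which fewer cells of a type and less RNA per cell cannot be told apart.

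The BASC alveolar organoid was derived from Sca1 positive cells, yet its Ly6a level was 2.28 times the mean of the AT2 organoids, while the BASC bronchiolar subclone of the same sort held 14.3 times as much as the alveolar one. There is 1 culture of each subclone, so this difference has no replicate check. Within lane 8 the AT2 organoid with Ad-Cre held 61.6 TPM, the alveolar subclone 141 and the bronchiolar subclone 2013. Within lane 7 the AT2 organoid with Ad-GFP held 62.0 TPM and the BASC mixed organoids 2162 and 2851.

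**Figure D1:**
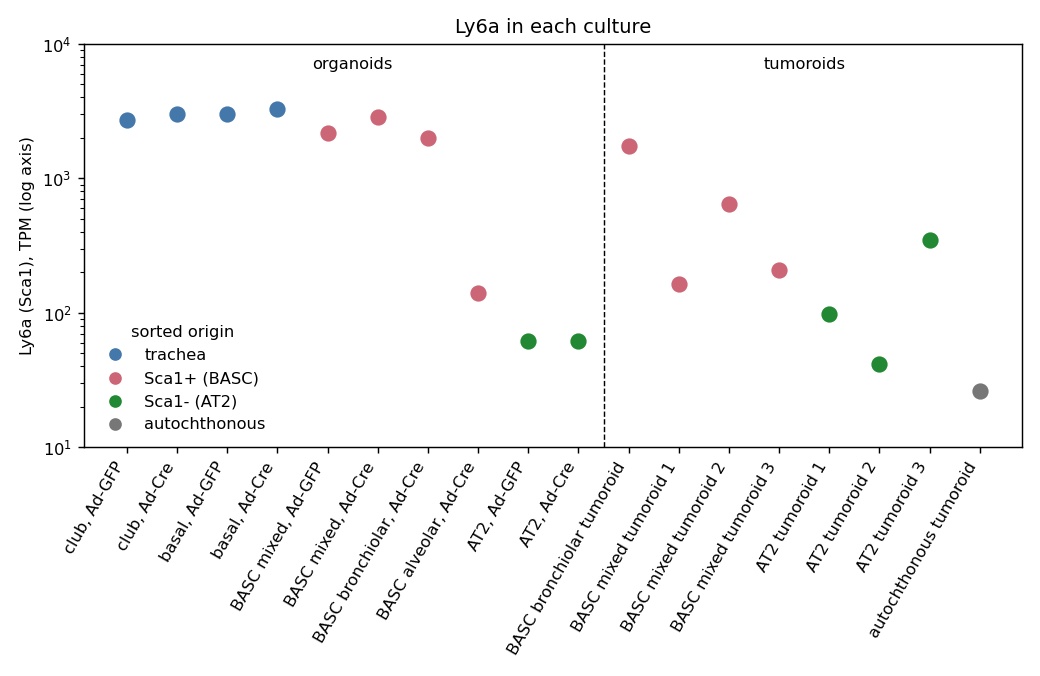
Ly6a level in TPM on a log axis for each of the 18 cultures (1 point per culture), coloured by sorted origin, with organoids left and tumoroids right of the dashed line. The 7 tracheal, BASC mixed and BASC bronchiolar organoids sit between 2013 and 3274 TPM, the 3 alveolar organoids between 61.6 and 141, and the BASC bronchiolar tumoroid at 1737 stands above the other 7 tumoroids.

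In the tumoroids the BASC bronchiolar culture stood highest for Ly6a with 1737 TPM. The 3 BASC mixed tumoroids held 163, 647 and 208 TPM, and the 3 AT2 tumoroids 97.4, 41.5 and 347 TPM. The autochthonous tumoroid, from unsorted cells, was the lowest of all 18 cultures with 26.2 TPM. AT2 tumoroid 3 thus exceeded 2 of the 3 BASC mixed tumoroids, and the ranges of the Sca1 positive and Sca1 negative origins overlapped. The 3 BASC cultures that share a leading number in their titles held 647, 1737 and 208 TPM.

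In order of level, the first 8 cultures were all from tracheal or Sca1 positive cells, from 3274 down to 1737 TPM, and no neighbours among them differed by more than 1.26 times. The widest step in the order lay next, between the BASC bronchiolar tumoroid and BASC mixed tumoroid 2, and was 2.69 times. The 10 cultures below it mixed both sorted origins. Neighbours there differed by 1.01 to 1.87 times. The BASC mixed tumoroids alone spanned 3.97 times (163 to 647 TPM) and the AT2 tumoroids 8.36 times (41.5 to 347 TPM), both more than the widest step.

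Ly6e, which encodes a broadly expressed, interferon-inducible GPI-anchored protein, had the highest level of the 6 genes in all 18 cultures. It stood at 4428 and 4076 TPM in the club organoids and 4336 and 4352 in the basal organoids (Ad-GFP first in each pair). It stood at 3403 and 3745 TPM in the BASC mixed organoids and 3330 in the BASC bronchiolar organoid. The AT2 organoids held 962 and 1488 TPM and the BASC alveolar organoid 1457, all 3 below the 7 other organoids. Tumoroid levels were 4262 TPM in BASC bronchiolar, 2071, 1463 and 2272 in BASC mixed, 694, 1123 and 1782 in AT2, and 571 in the autochthonous culture. The highest and the lowest tumoroid were the same as for Ly6a.

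Ly6d, known as a marker of B-lineage progenitors and of stratified epithelium, followed the same division in the organoids. Its level was 537 and 344 TPM in the club and 487 and 455 in the basal organoids, 454.9 and 466.2 in the BASC mixed organoids, and 270 in the BASC bronchiolar organoid. It was 73.9 and 88.2 TPM in the AT2 organoids and 87.3 in the BASC alveolar organoid, again below every airway culture. The tumoroids broke the pattern. The BASC bronchiolar tumoroid again led with 389 TPM, but the AT2 tumoroids (183, 156 and 77.5 TPM) held more than BASC mixed tumoroids 1 and 2 (37.4 and 15.6 TPM), with BASC mixed tumoroid 3 at 83.4 and the autochthonous tumoroid at 19.0 TPM.

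Ly6c1, which encodes a form of the Ly6C antigen of monocytes and endothelium, varied least. The organoids ranged from 96.6 TPM in AT2 with Ad-GFP to 335 in BASC mixed with Ad-GFP. The 4 tracheal organoids held 240, 280, 215 and 219 TPM, BASC mixed with Ad-Cre 220, BASC bronchiolar 269, BASC alveolar 160 and AT2 with Ad-Cre 189. The tumoroids held 246 TPM in BASC bronchiolar, 196, 184 and 200 in BASC mixed, 221, 87.2 and 103 in AT2, and 85.9 in the autochthonous culture. Airway and alveolar organoids did not overlap, but the gap between 189 and 215 TPM was narrow.

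Ly6c2, the second Ly6C gene and no member of the 6, lies next to it and went the opposite way. It was at 0.140 to 0.510 TPM in the tracheal organoids, 0.990 and 7.20 in BASC mixed and 1.83 in BASC bronchiolar, against 76.5, 94.7 and 71.7 TPM in the 3 alveolar organoids. In the tumoroids it was lowest in the BASC bronchiolar culture at 1.14 TPM and reached 44.6 in the autochthonous one. Over the 18 cultures the 8 with the most Ly6a were the 7 below 2 TPM of Ly6c2 and the BASC mixed organoid with Ad-Cre.

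The start regions of this pair were compared because the neighbours differ so in level. The RefSeq table (GRCm38.p6) held promoters for 2 of the 6 members, Ly6c1 and Ly6g6c, and for Ly6c2, and the entries for Ly6a, Ly6d, Ly6e and Ly6i were missing. It held 2 entries each for Ly6c1 and Ly6c2, and only the printed entry of each was compared and searched. Each region below runs 5′ to 3′ along the gene from 250 bases before the start site to 50 after it, for Ly6c1 at chr15:75048788-75049087 on the minus strand and for Ly6c2 at chr15:75111922-75112221 on the minus strand. Capitals mark matches to the TATA box (TATAAA) or the gamma-activated site (TTCNNNGAA), a motif of interferon-gamma signalling, searched on both strands.
Ly6c1: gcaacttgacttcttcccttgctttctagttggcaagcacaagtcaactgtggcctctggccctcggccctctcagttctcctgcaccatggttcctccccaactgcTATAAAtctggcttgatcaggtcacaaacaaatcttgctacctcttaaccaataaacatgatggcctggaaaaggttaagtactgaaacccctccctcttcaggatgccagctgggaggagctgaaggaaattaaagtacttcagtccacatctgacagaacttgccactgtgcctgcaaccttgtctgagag
Ly6c2: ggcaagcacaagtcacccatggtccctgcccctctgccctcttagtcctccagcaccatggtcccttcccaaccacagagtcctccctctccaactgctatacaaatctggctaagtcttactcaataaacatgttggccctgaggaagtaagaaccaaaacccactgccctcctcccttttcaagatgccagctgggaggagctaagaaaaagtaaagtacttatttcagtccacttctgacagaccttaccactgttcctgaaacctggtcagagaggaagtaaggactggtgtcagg
The regions were identical at 208 of 282 aligned positions (73.8%). The printed Ly6c1 region held 1 TATAAA, starting 143 bases before this start site, and the printed Ly6c2 region held none. Neither region held a gamma-activated site. Of all 32851 promoter regions in the table, 13.6% held TATAAA and 8.30% the gamma-activated site. The match is a description of these letters and not of a working site.

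Ly6i, a close neighbour of Ly6a, had the lowest level of the 5 chromosome 15 members in all 18 cultures. It was highest in the BASC alveolar organoid at 61.3 TPM and in the AT2 organoid with Ad-GFP at 56.4, but the AT2 organoid with Ad-Cre held 12.8 TPM, the lowest organoid of all. The tracheal organoids held 18.9, 23.0, 15.0 and 22.2 TPM, the BASC mixed organoids 21.1 and 33.0, and BASC bronchiolar 23.1. In the tumoroids it ranged from 0.260 TPM in BASC mixed tumoroid 2 to 30.7 in AT2 tumoroid 3. The remaining tumoroids held 13.9 and 6.15 TPM (BASC mixed 1 and 3), 2.03 and 1.28 (AT2 1 and 2), 2.25 (BASC bronchiolar) and 6.95 (autochthonous).

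Ly6g6c, the only member outside chromosome 15, encodes a little studied Ly6 protein of the major histocompatibility complex class III region. The club organoids held 7.26 and 3.86 TPM, the basal 4.53 and 3.45, the AT2 3.15 and 3.9 and the BASC mixed organoids 7.16 and 2.6 (Ad-GFP first in each pair), with 3.85 in BASC alveolar and 3.53 in BASC bronchiolar. There was thus no split between airway and alveolar cultures. Most tumoroids held more, with 56.7, 99.3 and 47.7 TPM in BASC mixed and 77.9 and 11.0 in AT2 tumoroids 1 and 2. BASC bronchiolar held 8.41 TPM, the autochthonous tumoroid 7.47 and AT2 tumoroid 3 only 4.71, inside the organoid range. Its RefSeq promoter (GRCm38.p6, chr17:35067075-35067374, plus strand) is shown because this gene alone of the 6 passed the test between organoids and tumoroids below, with capitals for the same motifs.
Ly6g6c: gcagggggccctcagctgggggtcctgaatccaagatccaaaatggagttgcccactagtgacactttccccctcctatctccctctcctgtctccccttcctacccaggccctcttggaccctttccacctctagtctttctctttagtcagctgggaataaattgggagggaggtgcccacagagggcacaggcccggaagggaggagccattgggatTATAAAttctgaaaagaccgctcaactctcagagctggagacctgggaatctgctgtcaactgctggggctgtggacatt
It held 1 TATAAA starting 30 bases before the start site and no gamma-activated site. The whole region lies inside the annotated gene (chr17:35065388-35070050), so this start site is not the first base of the counted gene.

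**Figure D2:**
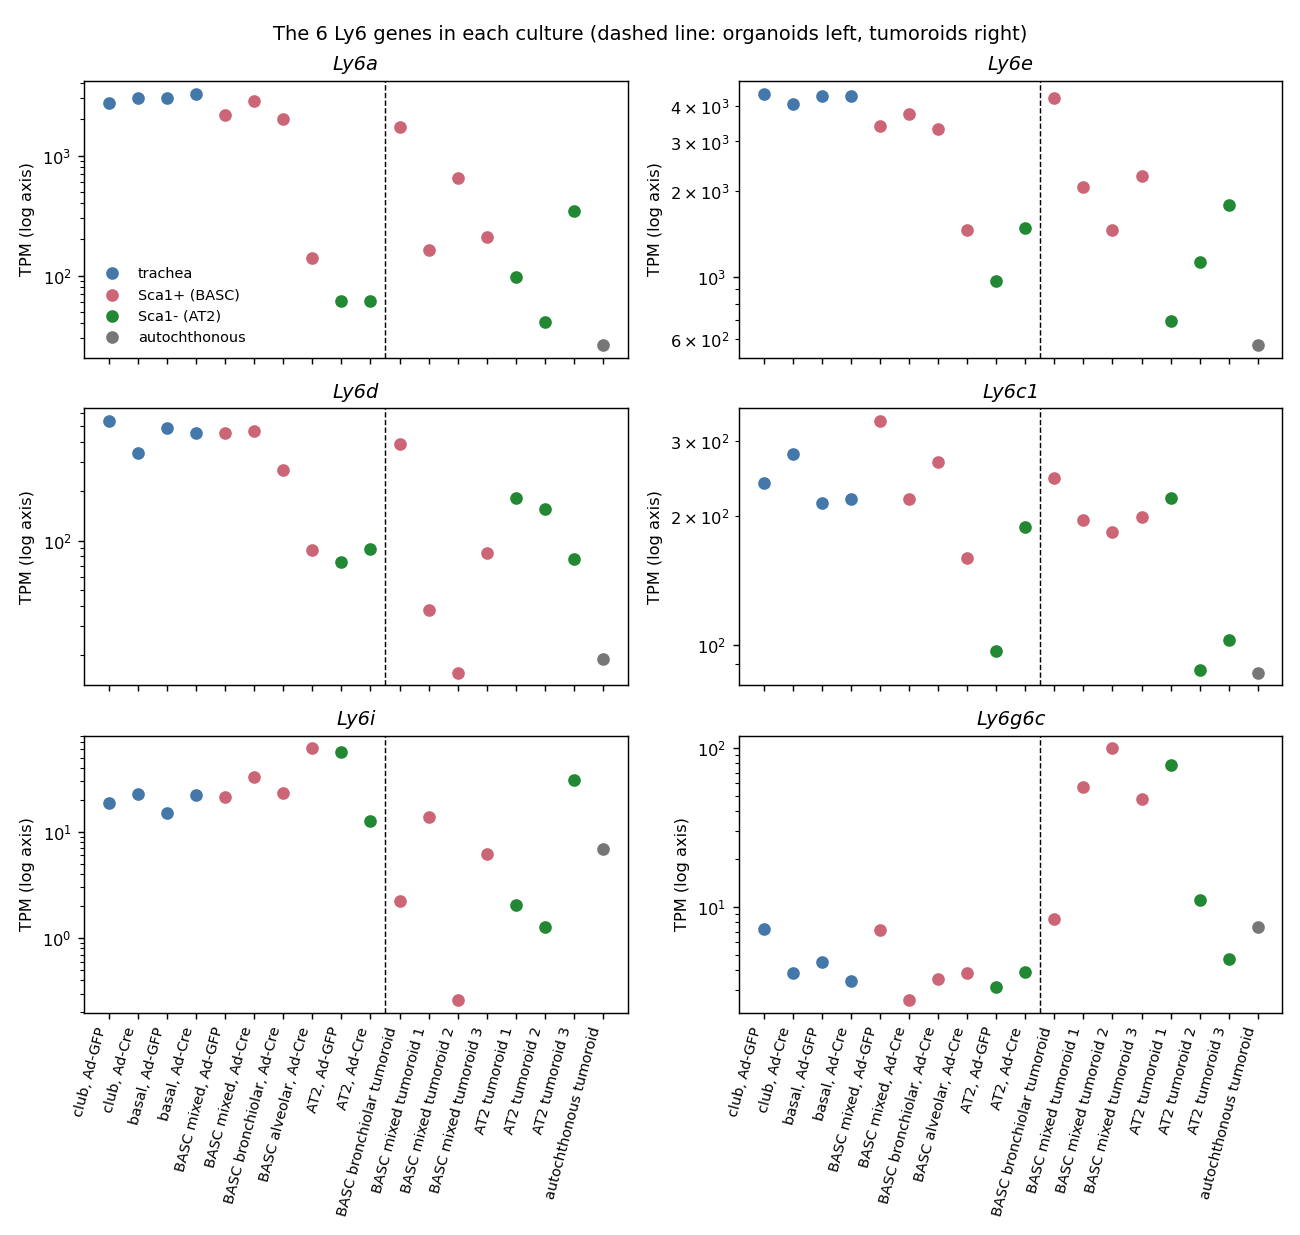
Level of each of the 6 Ly6 genes in TPM on log axes (scales differ between panels), 1 point per culture, coloured by sorted origin, with organoids left and tumoroids right of the dashed line. Ly6a, Ly6e and Ly6d fall together in the 3 alveolar organoids (Ly6e 962 to 1488 TPM, Ly6d 73.9 to 88.2 TPM), whereas Ly6g6c stays at 2.6 to 7.26 TPM in all organoids and reaches 99.3 TPM in a tumoroid.

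The 5 members Ly6d, Ly6e, Ly6i, Ly6a and Ly6c1 lie, in this order, within 286.8 kb of chromosome 15 (GRCm38, GENCODE vM21). Ly6d is at chr15:74762056-74763620, Ly6e at chr15:74955051-74959905, Ly6i at chr15:74979534-74983430, Ly6a at chr15:74994877-74998031 and Ly6c1 at chr15:75044018-75048830, all on the minus strand except Ly6e. Ly6g6c is at chr17:35065388-35070050. Recent copies share sequence. Of the 50-base stretches in the annotated transcripts of Ly6a, 19.0% also occur in another gene, most often Ly6c1. The share was 32.8% for Ly6c1, mostly with Ly6c2, and 4.76% for Ly6i, mostly with Ly6a. It was 0 for Ly6d, Ly6e and Ly6g6c. RSEM divides such reads by a model, and the counts of Ly6a, Ly6c1 and Ly6i were not whole in any of the 18 cultures, so part of their levels is an estimate. The levels of Ly6d, Ly6e and Ly6g6c do not rest on that division.

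The 3 alveolar organoids (2 AT2 and 1 BASC alveolar) were set against the 4 tracheal ones. All 3 were of distal and all 4 of tracheal origin, so culture state and origin cannot be told apart in this comparison. Ly6a was lower by 4.91 on the log2 scale (a log2 fold change of -4.91, SE 0.391, 3 against 4, adjusted p = 1.92e-05 by edgeR's quasi-likelihood test). Ly6d (-2.28, SE 0.157, adjusted p = 9.23e-06) and Ly6e (-1.57, SE 0.186, adjusted p = 0.000149) were lower too. Ly6i was higher (1.33, SE 0.473, adjusted p = 0.0357), Ly6c1 did not pass (-0.52, SE 0.219, adjusted p = 0.0642), nor did Ly6g6c (-0.33, SE 0.281, adjusted p = 0.324). The members called were 4 of 6, but 67% of the 18135 genes tested were called in this comparison, so the count itself is no feature of the family. In size, 4.45% of all tested genes changed by more than Ly6a, 17.6% by more than Ly6d and 25.5% by more than Ly6e.

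The results for Ly6i and Ly6c1 depended on the fit. Ly6i overlapped between the groups, and its call was lost with limma on log2(TPM + 1) (adjusted p = 0.161) and on leaving out each culture in turn except the AT2 organoid with Ad-Cre, with adjusted p between 0.0564 and 0.118. Ly6c1 passed with DESeq2 (adjusted p = 0.0326), with limma (adjusted p = 0.0161), without the AT2 organoid with Ad-Cre (adjusted p = 0.0474) and without the BASC alveolar organoid (adjusted p = 0.0456).

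**Figure D3:**
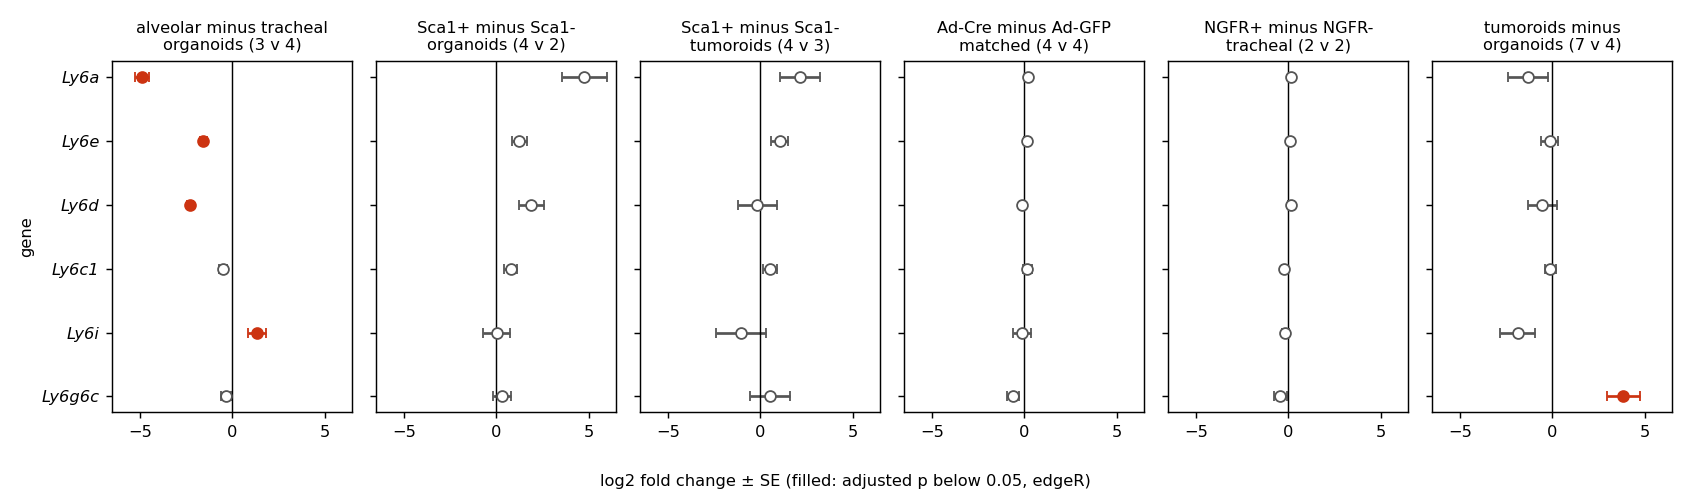
Log2 fold change (point) with its standard error (bar) of the 6 genes in 6 comparisons from edgeR fits, filled red where the adjusted p was below 0.05, with the number of cultures on each side in the panel titles. Ly6a, Ly6e and Ly6d lie left of 0 and Ly6i right of it in alveolar against tracheal organoids, and Ly6g6c alone is filled in tumoroids against organoids (3.84).

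Sorted origin was compared next, in the distal organoids of Sca1 positive (4) and Sca1 negative (2) cells. The fitted Ly6a difference was large, 4.77 on the log2 scale (SE 1.23), but its adjusted p was 0.26. Ly6d (1.90, SE 0.656) and Ly6e (1.25, SE 0.412) also leaned to the Sca1 positive side with adjusted p = 0.26 each, and Ly6c1, Ly6i and Ly6g6c differed by 0.76, 0.02 and 0.32. edgeR called 0 of 6 members and 0% of the 18866 genes tested, although 3 members and 3565 genes had an unadjusted p below 0.05. DESeq2 called 1866 genes, among them Ly6a (adjusted p = 3.15e-05), Ly6d (0.0397) and Ly6e (0.0335), and limma on log2(TPM + 1) called 2 genes and no member. The calls thus depended on the tool, and also on a single culture. Without the BASC alveolar organoid, edgeR called 6266 genes, Ly6a at 5.15 (adjusted p = 0.00225), Ly6d at 2.20 (adjusted p = 0.00782) and Ly6e at 1.45 (adjusted p = 0.0151). With lane as a term the Ly6a difference was 4.59 (adjusted p = 0.279).

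Among the transplant tumoroids, 4 of Sca1 positive and 3 of Sca1 negative origin, Ly6a differed by 2.15 on the log2 scale (SE 1.07, adjusted p = 1). Ly6e differed by 1.04 (SE 0.474), Ly6c1 by 0.52, Ly6g6c by 0.52, Ly6d by -0.16 and Ly6i by -1.03. edgeR called 0 members and 0% of 15703 genes, with 0 members and 228 genes at an unadjusted p below 0.05. DESeq2 called 16 genes and limma 1, and neither called a member. Without the BASC bronchiolar tumoroid the Ly6a difference was 1.02 and that of Ly6d -1.80.

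With both stages in 1 fit (8 against 5 cultures, stage as a term), Ly6a differed by 3.14 (SE 0.978, adjusted p = 0.325) and Ly6e by 1.13 (SE 0.325, adjusted p = 0.282). edgeR called 0% of 17821 genes and 0 members, with 3 members and 1920 genes at an unadjusted p below 0.05. DESeq2 called 461 genes, including Ly6a (adjusted p = 0.00472) and Ly6e (adjusted p = 0.0249), and limma 0. The origin effect on Ly6a was 2.62 log2 units smaller in tumoroids than in organoids (SE 1.58), but this difference did not pass (adjusted p = 0.984). It was 1.60 units smaller without AT2 tumoroid 3 and 3.75 without the BASC bronchiolar tumoroid (adjusted p = 0.781 and 0.691). None of the 6 members passed and 0% of 17821 genes were called, with 0 members and 845 genes at an unadjusted p below 0.05, while DESeq2 called 107 genes and limma 1, none of them a member.

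Activation of mutant EGFR by Ad-Cre was compared with Ad-GFP in the 4 matched populations. Ly6a changed by 0.25 on the log2 scale in club, 0.06 in basal, -0.002 in AT2 and 0.43 in BASC mixed organoids, and its fitted change over the 4 pairs was 0.17 (SE 0.123). No member passed, and 0% of 17749 genes were called, with 0 members and 350 genes at an unadjusted p below 0.05. DESeq2 called 5 genes and limma 0, with no member among them. Ly6i moved most in a single pair, by -2.07 in AT2 against 0.33, 0.42 and 0.70 in club, basal and BASC mixed. Ly6c1 rose by 0.96 and Ly6e by 0.63 in the AT2 pair, values from 1 culture each with no test. The AT2 pair alone was split between lanes (Ad-GFP lane 7, Ad-Cre lane 8), so virus and lane cannot be told apart in it.

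The tracheal sorts by NGFR, a receptor of basal cells, gave organoids in which no member passed the test. Ly6a differed by 0.15 (SE 0.112) between NGFR positive and NGFR negative organoids (2 against 2), and the other 5 members by -0.44 to 0.13, none past the threshold, where 0.267% of 17234 genes were called. No member had an unadjusted p below 0.05, and neither DESeq2 (219 genes) nor limma (6 genes) called one. Ngfr itself was at 46.6 to 53.1 TPM over all 4.

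Transplant tumoroids (7) were set against the distal Ad-Cre organoids (4). Ly6g6c rose by 3.84 on the log2 scale (SE 0.905, adjusted p = 0.0138) and kept its call without any 1 culture (adjusted p up to 0.0458). It was 1 of 6 members called, where 19.6% of 16139 genes were called. 1.03% of the tested genes changed by more. Ly6a (-1.34, SE 1.08), Ly6i (-1.88, SE 0.949), Ly6d (-0.55, SE 0.778), Ly6e (-0.14, SE 0.445) and Ly6c1 (-0.11, SE 0.282) did not pass. The Ly6a value was -0.52 without the BASC mixed organoid with Ad-Cre and -2.29 without the BASC bronchiolar tumoroid, neither past the threshold. Ly6i passed on leaving out AT2 tumoroid 3 (-2.74, adjusted p = 0.0463). Its tumoroid values rest on few counts, 3 in BASC mixed tumoroid 2 and 16, 28 and 32 in AT2 tumoroid 2, BASC bronchiolar and AT2 tumoroid 1, so counting error is large there. The 2 arms differ in platform as well as in stage.

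The organoids fell into 2 separate clusters, so likeness between members was read within the 7 tracheal, BASC mixed and BASC bronchiolar organoids. It is a description with no test, and the members were read from the same libraries, whose depth differed (27772660 to 63217079 expected counts). Ly6e ran from 4076 to 4428 TPM in the tracheal (lane 6) and 3330 to 3745 in the BASC organoids (lanes 7 and 8). Ly6a ran from 2718 to 3274 and from 2013 to 2851 TPM, with overlap. The part of region or lane in these relations was not tested. Pearson's r of log2 CPM (counts scaled for library size) with Ly6a was 0.90 for Ly6e (Spearman's rho 0.86), 0.53 for Ly6d (rho 0.18), 0.02 for Ly6i (rho -0.11), -0.31 for Ly6g6c (rho -0.11) and -0.56 for Ly6c1 (rho -0.68). In the 8 tumoroids it was 0.81 for Ly6e (rho 0.76), 0.64 for Ly6c1 (rho 0.55), 0.29 for Ly6d (rho 0.12), 0.11 for Ly6g6c (rho 0.10) and -0.25 for Ly6i (rho -0.19). Leaving out the 2 tumoroids farthest from the median of Ly6a lowered r to 0.28 for Ly6e and 0.15 for Ly6c1 and turned it to -0.78 for Ly6d. The tumoroid relations thus rest on those cultures. Ly6e alone of the 5 had an r above 0.8 with Ly6a in both sets, in the tumoroids only with those cultures included.

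The 5 genes most like Ly6a, by the smaller of their r over 10 organoids and over 8 tumoroids among 13898 genes, were Mgat3 (0.97 and 0.98), a glycosyltransferase, Eva1c (0.99 and 0.95), Vars (0.97 and 0.95), a valyl-tRNA synthetase, Lpcat4 (0.99 and 0.95), a lysophospholipid acyltransferase, and Pak1 (0.97 and 0.94), a kinase. The organoid values mainly carry the step between the 2 clusters. Of the members, Ly6e ranked 173, Ly6c1 983, Ly6d 3457, Ly6g6c 4746 and Ly6i 8127 of 13897.

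The wider superfamily was read from 33 further Ly6/uPAR genes, of which 31 were in the tables and 20 reached 1 TPM in any culture. In alveolar against tracheal organoids 20 were tested, 11 were lower, 5 higher and 4 not called, beside the 67% of all genes called. Their median log2 fold change was -0.80, and that of all genes -0.04. Psca, first known from prostate, fell furthest (-8.01, SE 0.486, adjusted p = 5.23e-06), from 92.9 to 112 TPM in tracheal to 0.0900 to 0.880 TPM in alveolar organoids. Lypd2 fell by 5.43 (SE 1.25, adjusted p = 0.00528) and Lypd6b by 1.36 (SE 0.184, adjusted p = 0.000312). Plaur, the urokinase receptor, fell by 0.43 and Lynx1, a modulator of nicotinic receptors, by 0.37.

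Against that direction, Ly6c2 was 6.86 higher (SE 0.231, adjusted p = 5.19e-07) and Cd177, a neutrophil antigen, 4.27 higher (SE 0.599, adjusted p = 0.000377) in the alveolar organoids. Cd177 stood at 502, 100 and 174 TPM in AT2 with Ad-GFP, AT2 with Ad-Cre and BASC alveolar organoids and at 9.61 to 25.0 TPM in the tracheal ones. Cd59a, a complement inhibitor, was 0.72 higher. Ptprc (CD45), which marks the leukocytes in which both are best known, was also higher (4.23, adjusted p = 0.000137) but at most 0.420 TPM in any organoid and 0.910 in any tumoroid. In transplant tumoroids against distal organoids 15 of these genes were tested, of which Ly6g5b was higher (1.11, adjusted p = 0.0418) and Lypd2 lower (-5.70, SE 1.12, adjusted p = 0.00622), beside the 19.6% of all genes called. Lypd2 stood at 1.68 TPM or less in every tumoroid, the bronchiolar one included, although that culture held Ly6a at 1737 TPM. The AT2 organoid with Ad-Cre held 0.31 TPM of Lypd2, inside the tumoroid range, and the other 3 organoids of that comparison 20.7 to 99.1 TPM.

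**Figure D4:**
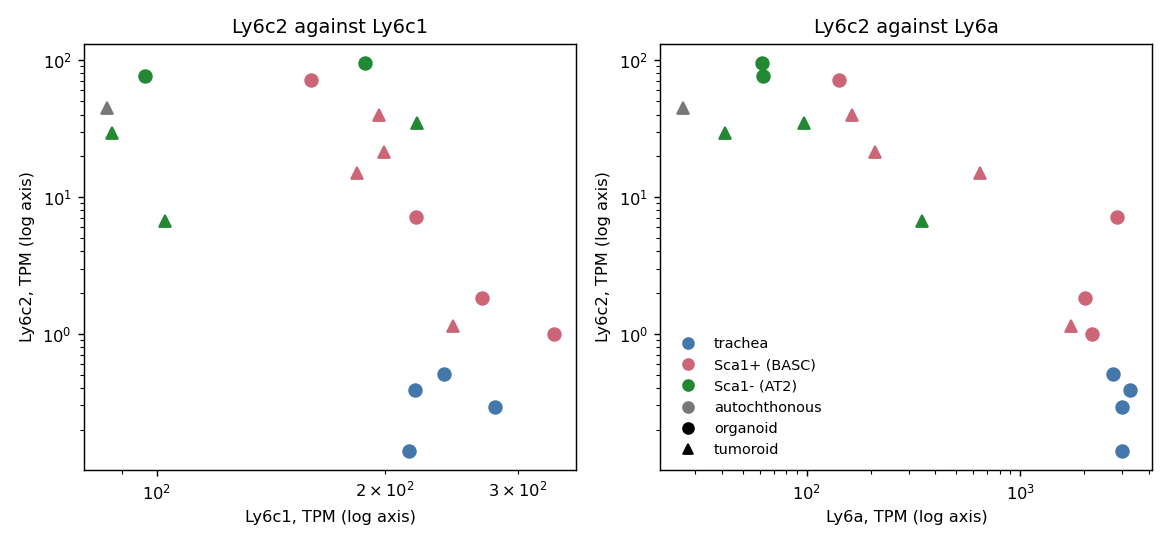
Ly6c2 level (vertical) against Ly6c1 (left) and Ly6a (right), all in TPM on log axes, 1 point per culture, coloured by sorted origin, with circles for organoids and triangles for tumoroids. Ly6c2 is highest, at 71.7 to 94.7 TPM, in the 3 organoids where Ly6a is lowest (61.6 to 141 TPM), and at most 7.20 TPM in the 8 cultures with Ly6a at 1737 TPM or more.

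Summed epithelial markers divided the cultures as Ly6a did. The 8 club genes summed to 19380 to 28340 TPM in the 7 airway organoids and 20210 in the BASC bronchiolar tumoroid, which are the 8 cultures high in Ly6a, and to 189.5 to 4431 TPM in the other 10. Their most abundant genes were Cbr2, a carbonyl reductase, and Scgb1a1, the defining secretory protein of club cells. Cbr2 held 14100 to 16270 TPM in the tracheal and 61.9 to 1004 in the alveolar organoids. Scgb1a1 ran the other way there, at 7.03 to 18.4 TPM in the tracheal and 50.9 to 1221 in the alveolar organoids, and was highest in the BASC bronchiolar organoid (6392 TPM) and tumoroid (8473 TPM). The split in the club sum thus does not hold for Scgb1a1, and Cbr2 alone made up most of that sum in the tracheal organoids. In alveolar against tracheal organoids 6 of the 8 club genes were called lower and 2 higher, beside 67% of all genes called. Epcam, the epithelial adhesion molecule used in sorting, stood at 617 to 1099 TPM in the 7 airway organoids and 584 in the BASC bronchiolar tumoroid, against 113 to 175 in the alveolar organoids and 30.8 to 246 in the other tumoroids. The part of the epithelial share in the Ly6a levels was not tested. The 8 AT2 genes, led by Sftpc and Sftpb, summed to 67.7 to 8217 TPM in those 8 cultures and to 31110 TPM or more in the others. Among the 6 AT2 and BASC mixed tumoroids, those with the most Ly6a (BASC mixed 2 and AT2 3) had the lowest AT2 sums, 33850 and 31110 TPM. The BASC alveolar organoid had an AT2 sum of 78100 TPM, between those of the AT2 organoids (77570 and 83540). Basal genes, led by Krt5 and Krt14, summed to 1041 TPM or more in the same 8 cultures, against at most 164 in the rest. Multiciliated genes, led by Foxj1 and Cfap126, summed to 159.6 TPM or more there, against at most 67.3 in the rest. In the BASC bronchiolar tumoroid only 3 of the 8 multiciliated genes reached 1 TPM, with Foxj1 at 131.5 and Cfap126 at 23.85 TPM. Krt14, at 1316 TPM, made up most of the basal sum of 1600 TPM in that tumoroid.

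Other cells of these cultures can also carry Ly6a. The 12 fibroblast genes, led by Col1a1 and Col3a1, summed to 919 to 1003 TPM in the tracheal and 2328 to 4162 in the alveolar organoids, and 11 of the 11 tested were higher in the alveolar ones, opposite to Ly6a. Of all 18135 genes in that comparison 67% were called, 5966 of them higher. The median log2 fold change was 2.13 for the fibroblast genes and -0.04 for all genes. In the 6 AT2 and BASC mixed tumoroids the sum was 392, 212 and 4845 TPM in AT2 1 to 3 and 1246, 2163 and 412 in BASC mixed 1 to 3. The largest sums were thus in the same 2 tumoroids that held the most Ly6a (347 and 647 TPM). The part of support or host fibroblasts in those levels was not tested.

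Defining endothelial markers were at or near 0, with Cdh5 at most 0.0800 TPM, Tie1 0.0900 and Emcn 0.120 in any culture. Esam and Pecam1, the 2 most abundant of the 12 endothelial genes, reached 144 and 4.55 TPM, with Esam at 101 to 144 TPM in alveolar and at most 0.520 in tracheal organoids. The 12 immune genes, led by Cd68 and S100a8, summed to 89.5 to 108 TPM in the tracheal, 55.5 and 75.9 in the BASC mixed and 35.8 in the BASC bronchiolar organoids, all above the 3 alveolar ones (27.6 to 29.8), as for Ly6a. Cd68, a lysosomal protein of macrophages, made up most of this at 81.3 to 102 TPM in the tracheal and 22.4 to 22.9 in the alveolar organoids, while of the 6 immune genes tested 4 were higher and 2 lower in the alveolar ones. In the tumoroids the sum was 20.6 to 56.7 TPM in AT2 and BASC mixed and 30.2 in BASC bronchiolar. The part of immune cells in the Ly6a levels was not tested. Of the 16 interferon-stimulated genes, led by Bst2 and Isg15, 12 were lower in alveolar than in tracheal organoids and none higher, the same direction as Ly6a and Ly6e, in a comparison with 67% of genes called. Their sum was 1991 to 2363 TPM in the tracheal, 1514 and 1609 in the BASC mixed and 477 in the BASC bronchiolar organoids. It was 306 (Ad-GFP) and 989 TPM (Ad-Cre) in the AT2 organoids and 783 in the BASC alveolar organoid. The BASC bronchiolar sum thus lay inside the range of the alveolar organoids. AT2 tumoroids 1 to 3 held 172, 301 and 1553 TPM. BASC mixed tumoroids 1 to 3 held 924, 594 and 1252 TPM, BASC bronchiolar 576 and the autochthonous tumoroid 251. The part of interferon in the levels was not tested.

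**Figure D5:**
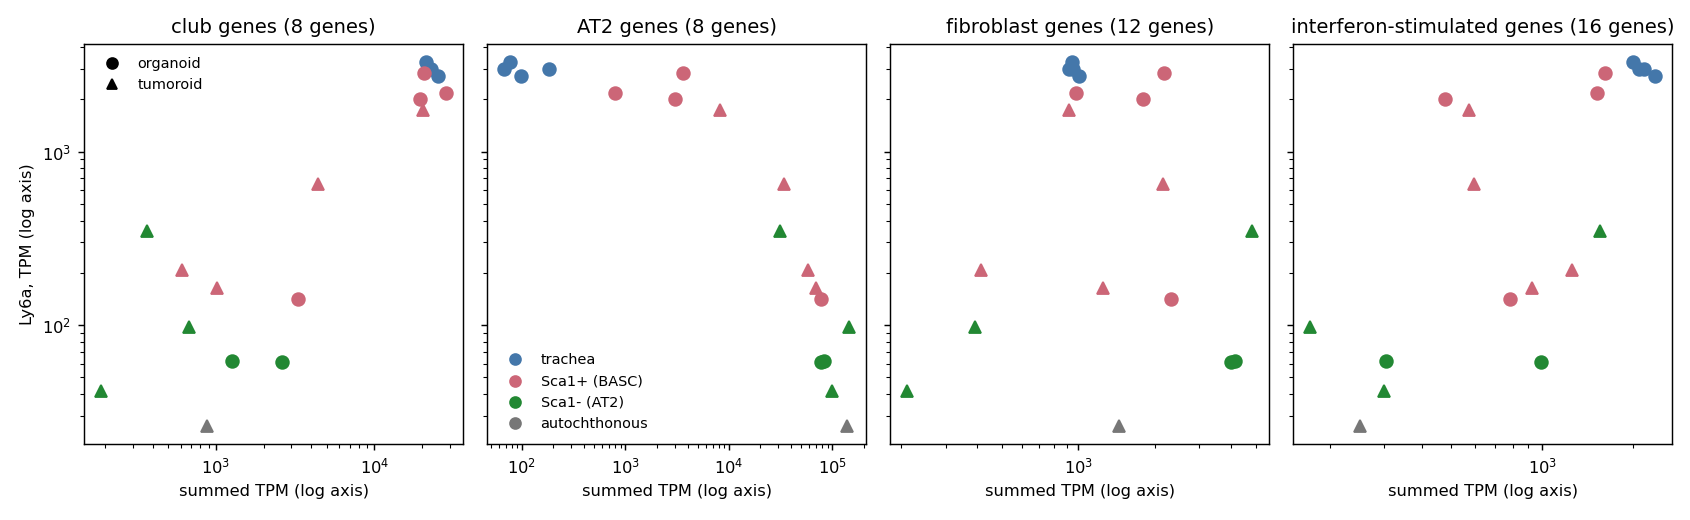
Ly6a level (vertical) against the summed level of 4 gene lists (club 8 genes, AT2 8, fibroblast 12, interferon-stimulated 16), all in TPM on log axes, 1 point per culture, coloured by sorted origin, with circles for organoids and triangles for tumoroids. The 8 cultures with club sums of 19380 TPM or more all hold Ly6a at 1737 TPM or more, whereas the fibroblast sums of these cultures (917 to 2177 TPM) overlap with those of the others.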

How the data were processed

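RNA of 10 organoid and 8 tumoroid cultures was sequenced by the submitters. Per the labels and the study's methods, the authors trimmed reads with Trimmomatic 0.39 and mapped them to GRCm38 transcripts with STAR 2.6.1d and RSEM 1.3.2 (versions from the submitters' processing notes; the strand setting was not given in the sources used here). The deposited tables give RSEM expected counts and TPM per gene, and the authors normalized TPM for length and library size. The mean fragment or read length, which the deposited lengths do not tell apart, was 63.42 to 63.45 bases in organoids. It was 49.91 to 49.95 bases in tumoroids, so this length differed between the stages too.

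Gene identifiers were matched to symbols by GENCODE vM21 (46091 of 46603 matched). Expected counts were rounded, genes filtered with filterByExpr, scaled by TMM and tested with edgeR 4.0.16 (glmQLFit and glmQLFTest, two-sided, Benjamini-Hochberg adjusted p below 0.05 over all genes tested), using only the groups of each comparison. Stage was a term in the joint fits and population a block in the Ad-Cre comparison. The block pairs Ad-Cre with Ad-GFP by population, since each sort was divided between the viruses. Correlations used log2 CPM with a prior count of 2. Alternatives were DESeq2 1.42.0 (Wald), DESeq2 size factors, no filter, at least 10 counts in every sample, limma 3.58.1 on log2(TPM + 1), leaving out each culture, a lane term and no block. The scripts were tested on simulated data.

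Depth was 15327265 to 97191624 expected counts per table. In the tumoroids Ly6i had 3 to 255 and Ly6g6c 34 to 1284 counts, so counting error adds to the spread between cultures. The other 4 members had at least 155 counts in every culture. The 6 members, the gene lists and the tests were chosen with earlier results of these data known. Named were all members, up to 8 other Ly6/uPAR genes past the threshold by mean TPM, the 2 most abundant genes of each marker list, and the 5 genes most like Ly6a with at least 1 CPM in 9 cultures. Epcam, Ptprc, Ngfr, Cdh5, Tie1 and Emcn were added as sorting or defining markers, and Ly6g5b as the 1 further gene called in the tumoroid comparison. Promoters are from RefSeq (GRCm38.p6), with entries for 2 of the 6 members.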

Additional observations from a re-analysis of the deposited data

Results flagged for a closer look

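Cultures that stood far from the rest of their side of a comparison were sought over 42 sets of log2 values. The sets covered 6 genes, on each side with 4 to 10 cultures. Chance alone is set to mark about 1 in 20 among replicates of 1 condition. Every side here pools unlike cultures, so that rate does not apply and the marks are a description. Of the 42 sets, 6 were marked. Ly6a in the BASC alveolar organoid, 141 TPM, lay below the other 3 organoids of Sca1 positive origin (2013 to 2851 TPM). Ly6c1 in the club organoid with Ad-Cre, 280 TPM, lay above the other 3 tracheal organoids (215 to 240 TPM). The other 4 fall in the matched Ad-Cre comparison, whose sides pool 4 populations by design, and in each the AT2 organoid was lowest. They are Ly6a at 61.6 TPM (Ad-Cre) and 62.0 TPM (Ad-GFP), Ly6e at 1488 TPM (Ad-Cre) and Ly6d at 73.9 TPM (Ad-GFP).

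Under Ad-Cre against Ad-GFP, Ly6d and Ly6e moved one way in both tracheal pairs and the other way in both distal pairs. Ly6d changed by a mean of -0.36 on the log2 scale in the 2 tracheal and 0.16 in the 2 distal pairs, and Ly6e by -0.053 and 0.41. These differences between regions were not tested, and the AT2 pair was split between lanes 7 and 8.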

How the results depend on the processing

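Of 248 member values recomputed under settings that keep every culture, 239 kept their direction and their side of the threshold, 7 gained a call and 1 lost it (all named in the report), and Ly6i in the organoid origin comparison turned to -0.001 with no filter. Counts of called genes moved with the tool, the filter and single cultures. DESeq2 called 1866 genes for sorted origin in organoids, 16 in tumoroids, 461 in both together and 107 for the difference of the origin effect, where edgeR called 0, and 219 for NGFR and 5 for Ad-Cre. limma on log2(TPM + 1) called 2 genes for origin in organoids, 1 in tumoroids, 1 for the difference and 6 for NGFR, where no filter gave 650. The lane term in the organoid origin comparison and the fit without the population block moved no member across the threshold (Ly6a 4.59 and 0.23 on the log2 scale). Some tumoroid titles share a leading number whose meaning the labels do not give. No fit used these numbers, and each shared one lies within 1 sorted origin, so it cannot serve as a block for origin.

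Leaving out 1 culture at a time gave 0 to 6266 genes for sorted origin in organoids (6266 without BASC alveolar), 0 to 10 with both stages (10 without BASC alveolar), 0 to 1 for the difference of the origin effect, 52 to 410 for NGFR (315 without club with Ad-GFP and 410 without club with Ad-Cre) and 1973 to 3716 for tumoroids against organoids (1973 without BASC bronchiolar). Where a culture was left alone on its side, it was assumed to vary like the others. Of 414 member values, 33 changed sign and none of those passed the threshold. The log2 ranges of these results were -0.688 to 1.42 (Ly6i) and -0.036 to 0.50 (Ly6g6c) for origin in organoids, and -1.80 to 0.212 (Ly6d), -1.93 to 1.36 (Ly6i) and -0.012 to 2.71 (Ly6g6c) in tumoroids. They were -0.314 to 0.956 (Ly6d) and -1.07 to 0.602 (Ly6i) with both stages, and -0.774 to 0.316 (Ly6c1), -0.681 to 0.068 (Ly6e), -2.44 to 1.35 (Ly6i) and -0.314 to 2.40 (Ly6g6c) for the difference. For NGFR they were -0.127 to 0.44 (Ly6d), -0.401 to 0.047 (Ly6i) and -0.829 to 0.054 (Ly6g6c), for Ad-Cre -0.079 to 0.414 (Ly6c1), -0.207 to 0.042 (Ly6d) and -0.455 to 0.495 (Ly6i), and for tumoroids against organoids -0.237 to 0.003 (Ly6c1), -1.08 to 0.077 (Ly6d) and -0.492 to 0.117 (Ly6e). The causes were not tested.

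Over 10 organoids and over 8 tumoroids, 8 of the 15 pairs of members had a positive r in both, 4 without the 2 cultures farthest from the median of Ly6a. Each organoid condition had 1 culture, which limits these comparisons, and depth limits those of Ly6i in tumoroids, which with at least 10 counts in every sample were not tested.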
